A study of Arabidopsis thaliana with 6 samples.

Results

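The genes described here are the 38 nuclear genes of Arabidopsis thaliana listed as coding for chlorophyll a/b-binding antenna proteins (LHCA and LHCB), the small subunit of Rubisco (RBCS) and nucleus-encoded subunits of photosystems I and II (PSA and PSB). They were chosen by locus from a fixed list of family members, and all 38 of 38 had a value among the 32627 genes on the arrays. The RefSeq gene table places all 38 on the nuclear chromosomes and gives each a name of these families, as its symbol or among its synonyms. The plants carried 35S::SUP-GR in Landsberg erecta wild type, which joins the floral zinc-finger protein SUPERMAN to the steroid-binding part of the glucocorticoid receptor. The 35S promoter is active in most plant tissues and not only where SUPERMAN is normally made. Without a steroid such fusion proteins mostly stay in the cytoplasm, and dexamethasone (DEX), a synthetic steroid, lets them enter the nucleus. All plants grew at 22 °C in continuous light, and both groups carried the transgene. The Mock group (3 arrays) was dipped for 1 min in ethanol solution and the DEX group (3 arrays) in 10 µM DEX (the labels write µm, read here as a concentration), both with 0.015% Silwet L-77. Inflorescences with flower buds younger than stage 10 were taken 4 hours later. DEX-treated plants without the transgene were not analysed here, so an action of SUP-GR and an action of DEX itself cannot be told apart. The labels do not say how many plants were pooled per sample or whether the line descends from 1 transformant.

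Antenna proteins bind chlorophyll in the thylakoid membrane and pass light energy to the reaction centres of the photosystems. LHCB proteins serve mainly photosystem II, which splits water, and LHCA proteins serve photosystem I, which reduces ferredoxin. The core of each reaction centre and the large subunit of Rubisco, the enzyme that fixes carbon dioxide, are encoded in the chloroplast, while the proteins considered here are made from nuclear transcripts and imported. Flower buds are green and hold photosynthetic cells, sepals among them.

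At 4 hours after the dip, 33 of the 38 genes of the photosynthetic apparatus had a 95% interval of the DEX against Mock difference within a 2-fold change either way. The share over all genes, most of them dimmer, was 61.2%. None of the 38 genes passed the test over all genes (limma, adjusted p from 0.240 to 0.993), where 0.0521% of all genes were called, 0.0490% lower and 0.00306% higher. Above the 75th percentile of mean signal, where 31 of the 38 lay, 0 of 8157 genes were called (smallest limma adjusted p = 0.0846). At an unadjusted p under 0.05 (limma) there were 2 of the 38 (5.26%), LHCB4.3 and LHCB2.2. The share was 10.4% of all genes and 5.55% of those above the 75th percentile. Of the 38 differences (DEX minus Mock, log2 scale), 17 were above 0 and 21 below, with a median of -0.013, beside 0.0054 for all genes. Below 0 were 16018 of all 32627 genes and 3620 of the 8157 above the 75th percentile, whose median was 0.020. The lowest and highest of the 38 are given next. The 38 differences ranged from -0.82 for LHCB1.1 to 0.59 for LHCB1.4, both of which were dim or variable. The Mock and DEX arrays did not overlap for 7 of the 38 genes, 3 higher (LHCB1.3, LHCB2.2 and PSBP1) and 4 lower (LHCB4.3, LHCA1, LHCA6 and PSBO1). Among all genes 17.9% did not overlap, 8.74% higher and 9.20% lower, so that the 7 of 38 were near the background. In whole inflorescences, fewer cells of a type and less RNA per cell cannot be told apart.

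The genes were among the brightest on the arrays, which bore on the precision. Their median percentile of mean signal was 97.3, and 22 of the 38 lay above the 95th percentile, though signal also depends on the probe. The 31 genes above the 75th percentile had a median standard error (SE) of 0.12 on the log2 difference, and 30 of the 31 had a 95% interval within 1 log2 unit, or a 2-fold change, either way. The exception was LHCB4.3. Over all 38 genes, 33 had an interval within 1 log2 unit and 24 within 0.5, where 61.2% and 30.4% of all genes did. At like signal the shares were close: above the 75th percentile, 96.8% of the 31 genes and 98.2% of all genes had an interval within 1 log2 unit, and 74.2% and 73.4% within 0.5. The other 7 genes (LHCB1.1, LHCB1.4, LHCB2.1, LHCB2.2, LHCB7, RBCS1B and PSAN) were dimmer, with SE up to 0.75. A change as large as 2-fold was within the interval for 4 of these 7.

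**Figure D1:**
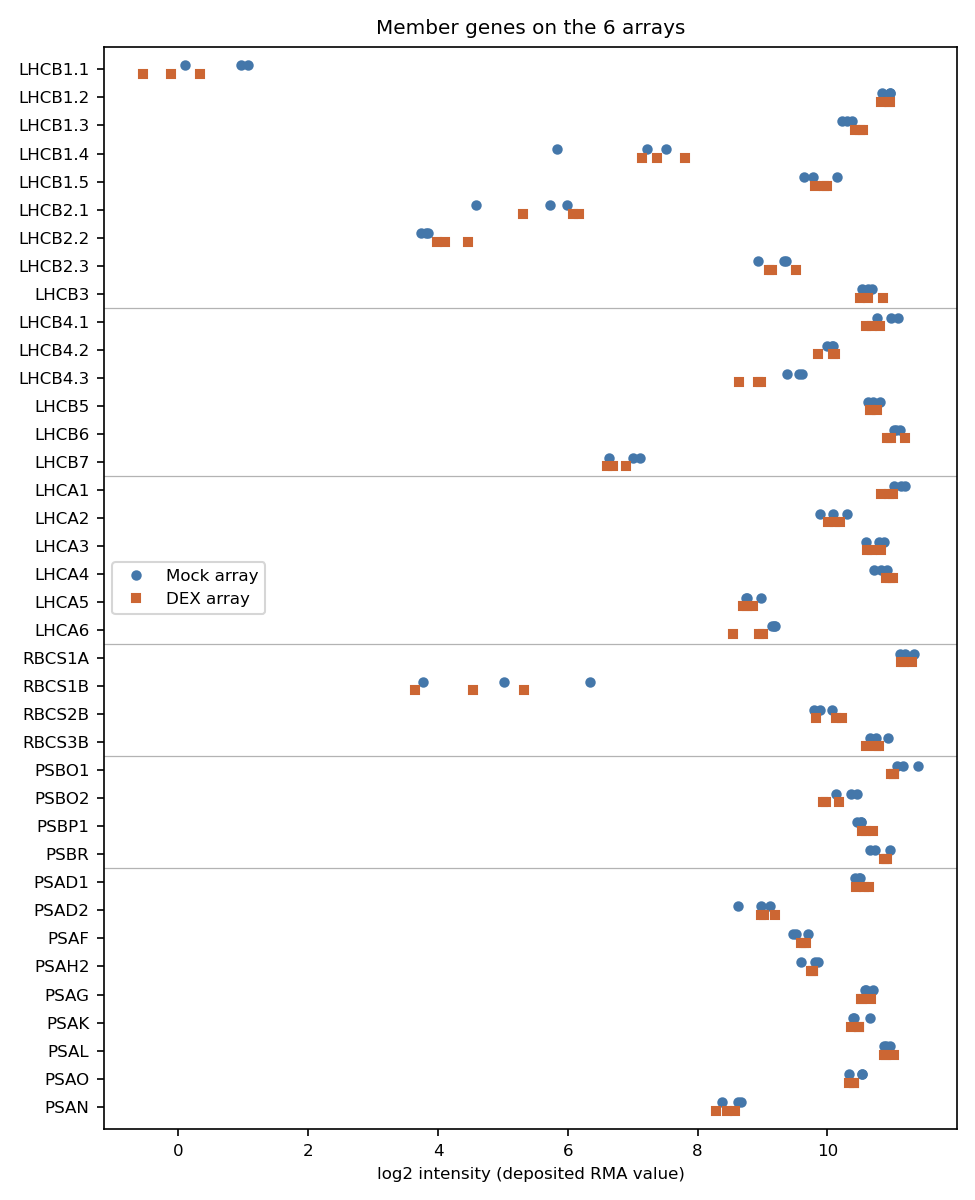
Log2 intensity (deposited RMA value, x axis) of each of the 38 genes on the 3 Mock arrays (circles) and 3 DEX arrays (squares); horizontal lines separate the groups by role. Most genes sit at the bright end with Mock and DEX arrays intermingled, while the 3 DEX arrays of LHCB4.3 lie below its 3 Mock arrays and RBCS1B is spread widely in both groups.

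The trimeric antenna of photosystem II (LHCII), the most abundant light-harvesting complex of the thylakoid, is built from LHCB1, LHCB2 and LHCB3 (AT5G54270) proteins. None of its 9 genes was called, with 7 differences above 0, 2 below and a median of 0.06 on the log2 scale. LHCB1.2 (AT1G29910), which had the brightest signal of the 9, read a log2 intensity of 10.84, 10.96 and 10.97 on the Mock arrays and 10.95, 10.83 and 10.97 on the DEX arrays. The groups were interleaved, and the log2 difference was -0.0048 (SE 0.11). LHCB1.3 (AT1G29930) read 10.23, 10.38 and 10.30 (log2 intensity) in Mock and 10.51, 10.42 and 10.55 in DEX. All its DEX arrays were above its Mock arrays, by a mean log2 difference of 0.19 (SE 0.10, limma adjusted p = 0.589). LHCB3, the subunit that stays within trimers tied to photosystem II, differed by 0.05 (SE 0.13, log2). The log2 differences of LHCB1.5 (AT2G34420) and LHCB2.3 (AT3G27690) were 0.06 (SE 0.16) and 0.05 (SE 0.19).

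LHCB2 proteins, which take part in the movement of antenna between the photosystems, are encoded by 3 genes here. LHCB2.2 (AT2G05070) had the smallest unadjusted p of the 9 trimer genes, 0.0471. Its log2 intensity was 3.74, 3.81 and 3.84 in Mock and 3.98, 4.46 and 4.11 in DEX, with no overlap. The log2 difference was 0.39 (SE 0.15, limma adjusted p = 0.472). The exact permutation test gave p = 0.1, its minimum with 20 relabelings of 3 against 3 arrays. Without DEX replicate 2 the log2 difference of LHCB2.2 was 0.25. This is a dim signal, with a mean intensity of 16.1, and the log2 difference was 0.20 when 16 was added to each intensity. LHCB2.1 (AT2G05100), its neighbour on chromosome 2, was at 4.58, 5.72 and 5.98 in Mock and 5.31, 6.17 and 6.08 in DEX (log2 intensity), with overlapping groups and a log2 difference of 0.43 (SE 0.44), which was 0.0040 without Mock replicate 1.

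Several loci of this family lie side by side: LHCB1.2, LHCB1.1 (AT1G29920) and LHCB1.3 on chromosome 1 with no other protein-coding gene between neighbours, and LHCB1.4 (AT2G34430) beside LHCB1.5 on chromosome 2. Their coding sequences are known to be very alike, the probe sequences were not analysed here, and a probe of 1 copy could read another. LHCB1.1 was near the bottom of the array, brighter than 3.71% of genes, at a log2 intensity of 1.07, 0.10 and 0.96 in Mock and -0.55, -0.12 and 0.33 in DEX. Its log2 difference of -0.82 (SE 0.35, limma adjusted p = 0.498) came with overlapping groups and was -0.06 with 16 added to each intensity. LHCB1.4 was at 7.51, 5.84 and 7.22 in Mock and 7.38, 7.15 and 7.81 in DEX (log2 intensity). Mock replicate 2 stood low for this gene, and without that array the log2 difference of 0.59 (SE 0.47) was 0.08.

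The minor antenna proteins CP29 (LHCB4), CP26 (LHCB5, AT4G10340) and CP24 (LHCB6, AT1G15820) connect the trimers to the core of photosystem II. All 6 genes of this group, LHCB7 included, had a difference below 0 on the feature that stood for the gene. Over all genes 16018 of 32627 were below 0. The median of the 6 was -0.11 (log2), and none was called. LHCB4.3 (AT2G40100), a CP29 gene also known as LHCB8 whose protein is shorter than those of LHCB4.1 (AT5G01530) and LHCB4.2 (AT3G08940), had the smallest p of all 38 genes. Its log2 intensity was 9.61, 9.57 and 9.37 in Mock and 8.93, 8.98 and 8.64 in DEX. Every DEX array lay below every Mock array, from a mean of 9.52 ± 0.13 to 8.85 ± 0.18 (log2 intensity, SD, n = 3). The log2 difference was -0.67 (SE 0.14, 95% interval -1.02 to -0.31), a ratio of 0.631 between DEX and Mock. It did not pass over all genes (limma, p = 0.00417 unadjusted and 0.240 adjusted), and the exact permutation test gave its minimum of p = 0.1.

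With a variance prior that follows intensity and resists outliers, LHCB4.3 passed (limma adjusted p = 0.00835), the single gene of the 38 to do so where 1.32% of all genes were called, 1.06% lower. It also passed when genes below the median intensity were left out (limma adjusted p = 0.0386; 1.73% of the genes tested were called). The 2 other CP29 genes had smaller differences. LHCB4.1 was at 10.98, 11.09 and 10.77 in Mock and 10.59, 10.69 and 10.81 in DEX (log2 intensity), which overlap, with a log2 difference of -0.25 (SE 0.13, limma adjusted p = 0.581). LHCB4.2 differed by -0.03 (SE 0.12, log2), and its second, dimmer feature by 0.17 (SE 0.21). The comparison within the CP29 genes was chosen after these values were seen. Taken within each array, LHCB4.3 minus LHCB4.2 (log2) was lower in DEX by a mean of 0.63, and LHCB4.3 minus LHCB4.1 by a mean of 0.41, with all 3 DEX arrays below all 3 Mock arrays in each case. Both gave the minimum exact permutation p of 0.1. LHCB4.3 was already apart on its own and had been singled out by its p, so these values largely restate its difference. They are no separate test of it.

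LHCB6 had the brightest signal of the minor antenna, with a log2 intensity of 11.06, 11.02 and 11.12 in Mock and 10.92, 10.98 and 11.19 in DEX. The arrays overlapped, with a log2 difference of -0.04 (SE 0.12). LHCB5 differed by -0.01 (SE 0.11) and LHCB7 (AT1G76570), a rarer LHCB protein, by -0.19 (SE 0.17), both on the log2 scale.

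**Figure D2:**
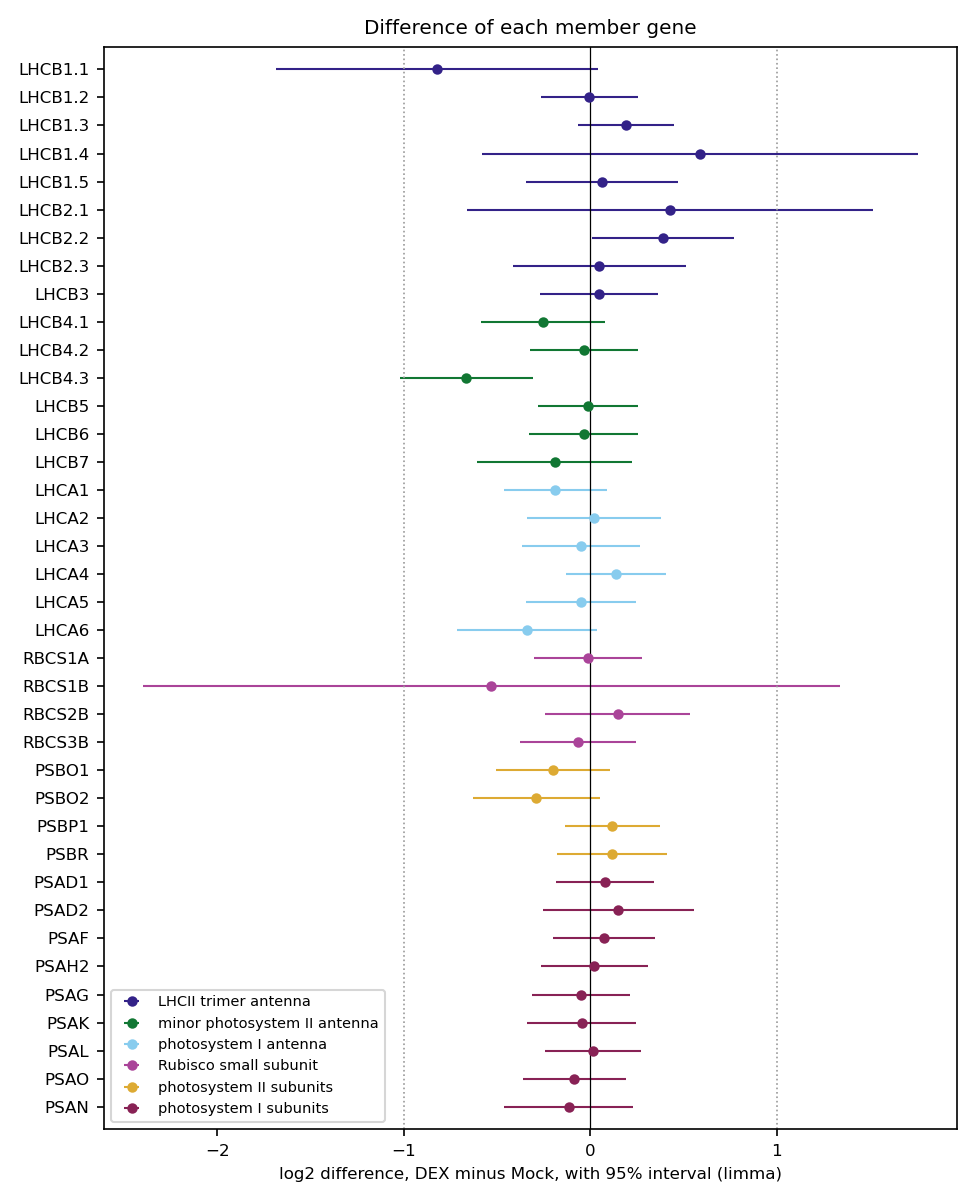
Log2 difference of DEX minus Mock (x axis) for each of the 38 genes, coloured by role, with the 95% interval from limma; dotted lines mark 1 log2 unit either way. LHCB4.3 at -0.67 stands below the others of similar precision, and the wide intervals belong to dim or variable genes such as RBCS1B, LHCB1.4, LHCB2.1 and LHCB1.1.

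The antenna of photosystem I is a belt of LHCA1 (AT3G54890) to LHCA4 (AT3G47470), and LHCA5 (AT1G45474) and LHCA6 (AT1G19150) are minor proteins needed to join photosystem I with the NDH complex. None of the 6 genes was called, and the median log2 difference was -0.05, with 4 below 0. LHCA6 had the smallest p of the group. It read 9.20, 9.14 and 9.17 in Mock and 9.01, 8.94 and 8.55 in DEX (log2 intensity). The groups were apart, with DEX replicate 3 the lowest, and the log2 difference was -0.34 (SE 0.15), with a limma adjusted p = 0.524 and an exact permutation p at its minimum of 0.1. Without DEX replicate 3 the log2 difference of LHCA6 was -0.20.

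LHCA1 had the brightest signal of the 6 and read 11.19, 11.13 and 11.02 in Mock and 10.82, 11.01 and 10.95 in DEX (log2 intensity). The groups were just apart, and the log2 difference was -0.19 (SE 0.11, limma adjusted p = 0.622). LHCA1 has 3 further features on the array, a feature being a separately numbered signal of a locus. Their log2 differences were -0.05, -0.16 and -0.13, all with overlapping groups. LHCA4 differed by 0.14 (SE 0.11), LHCA2 (AT3G61470) by 0.02 (SE 0.14) and LHCA3 (AT1G61520) by -0.05 (SE 0.13), on the log2 scale. LHCA5 differed by -0.05 (SE 0.12, log2), while its other feature read 8.43, 8.45 and 8.53 in Mock and 8.79, 8.65 and 8.74 in DEX (log2 intensity). That feature was higher on all DEX arrays, by 0.26 (SE 0.10, log2; limma adjusted p = 0.470 over all features), so the 2 readings of LHCA5 pointed in opposite directions.

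The small subunit of Rubisco is encoded by RBCS1A (AT1G67090) and by the neighbouring genes RBCS1B (AT5G38430), RBCS2B (AT5G38420) and RBCS3B (AT5G38410) on chromosome 5. None was called, and the groups overlapped for all 4. RBCS1A, brighter than 99.9% of genes, was at 11.12, 11.34 and 11.19 in Mock and 11.13, 11.18 and 11.31 in DEX (log2 intensity). Its log2 difference was -0.01 (SE 0.12, 95% interval -0.30 to 0.28), and its second feature differed by 0.04 (SE 0.11). RBCS2B, which had the smallest p of the 4, was at 9.79, 10.07 and 9.89 in Mock and 10.23, 10.13 and 9.82 in DEX (log2 intensity). The log2 difference was 0.15 (SE 0.16, limma adjusted p = 0.796), and it lay between 0.060 and 0.27 with 1 array left out. RBCS3B differed by -0.07 (SE 0.12, log2).

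RBCS1B was dim and uneven, at 6.34, 5.01 and 3.77 in Mock and 5.33, 4.54 and 3.65 in DEX (log2 intensity). The spread within each group was larger than the log2 difference of -0.53 (SE 0.75), which was 0.12 without Mock replicate 1. The RBCS sequences are known to be near-identical between copies, so a signal could be shared between them here too.

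Among nucleus-encoded subunits of photosystem II, PSBO1 (AT5G66570), PSBO2 (AT3G50820) and PSBP1 (AT1G06680) belong to the oxygen-evolving complex at the lumen side, and PSBR (AT1G79040) helps to hold it. None of these 4 genes was called. PSBO1 and PSBO2, which encode 2 forms of the manganese-stabilizing protein, both read lower in DEX. PSBO1, the brightest, was at 11.40, 11.16 and 11.08 in Mock and 11.02, 11.03 and 10.98 in DEX (log2 intensity), without overlap, and the log2 difference was -0.20 (SE 0.12, limma adjusted p = 0.633). Without Mock replicate 1, its highest array, the log2 difference of PSBO1 was -0.11. PSBO2 was at 10.36, 10.46 and 10.14 in Mock and 10.18, 9.98 and 9.93 in DEX (log2 intensity), where DEX replicate 1 lay above Mock replicate 3. Its log2 difference was -0.29 (SE 0.14, limma adjusted p = 0.548).

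PSBP1 and PSBR were on the other side of 0, at log2 differences of 0.12 (SE 0.10) and 0.12 (SE 0.12). The DEX arrays of PSBP1 were all above its Mock arrays, but a second feature of the gene, at a similar signal, differed by -0.07 (SE 0.11) with overlapping groups.

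For the 9 subunits of photosystem I, the log2 differences lay between -0.12 and 0.15 with a median of 0.015, none was called and the groups overlapped for all 9. The 95% interval was within 0.5 log2 units for 8 of the 9. PSAD1 (AT4G02770) and PSAD2 (AT1G03130) form the docking site for ferredoxin on the stromal side. PSAD2 had the smallest p and was at 8.97, 9.12 and 8.63 in Mock and 8.97, 9.02 and 9.19 in DEX (log2 intensity), a log2 difference of 0.15 (SE 0.16), which was 0.010 without Mock replicate 3. PSAD1 differed by 0.08 (SE 0.11, log2). PSAL (AT4G12800), which with PSAH2 (AT1G52230) and PSAO (AT1G08380) forms the side where LHCII can dock, was the brightest. It read 10.97, 10.91 and 10.88 in Mock and 10.90, 11.03 and 10.87 in DEX (log2 intensity), interleaved, with a log2 difference of 0.01 (SE 0.10).

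PSAH2 and PSAO differed by 0.02 (SE 0.12) and -0.09 (SE 0.11) on the log2 scale. PSAF (AT1G31330) and PSAN (AT5G64040), which help plastocyanin to dock at the lumen side, differed by 0.07 (SE 0.11) and -0.12 (SE 0.14). PSAG (AT1G55670) and PSAK (AT1G30380), which border the antenna belt, differed by -0.05 (SE 0.11) and -0.05 (SE 0.12). A dimmer feature of PSAN, with a mean intensity of 53.0, read 6.08, 5.86 and 5.75 in Mock and 5.72, 5.41 and 5.43 in DEX (log2 intensity). All DEX arrays of that feature were below its Mock arrays, by 0.37 (SE 0.15, log2; limma adjusted p = 0.475 over all features). In all, 8 of the 38 genes had 10 further features. None of these was called, and 5 of the 10 had the sign of the feature that stood for the gene.

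**Figure D3:**
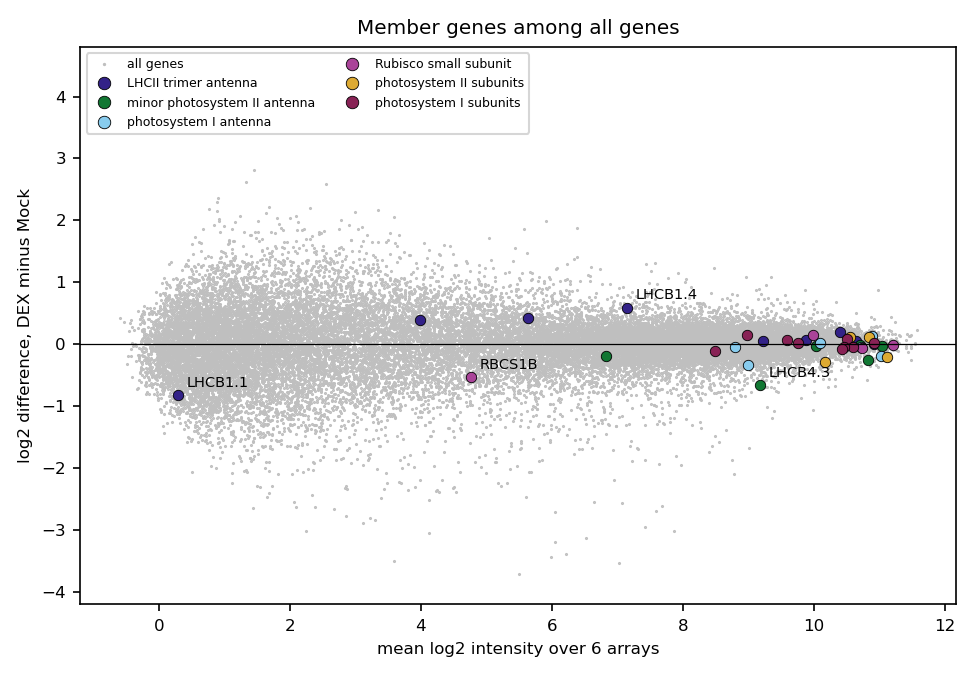
Log2 difference of DEX minus Mock (y axis) against mean log2 intensity over 6 arrays (x axis) for all genes (grey) and for the 38 genes, coloured by role. The 38 genes crowd at the bright, narrow end of the cloud, with LHCB4.3 near its lower edge at -0.67.

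Genes that act with these proteins were looked up from 7 lists of 76 nuclear genes, and none of the 76 was called either (limma, adjusted p from 0.373 to 0.999). At an unadjusted p under 0.05 (limma) there were 2 (2.63%), CPFTSY and OHP1, against 10.4% of all genes. The 76 were also bright, at a median percentile of 92.4. Above the 75th percentile, 0 of 8157 genes were called and 5.55% had an unadjusted limma p under 0.05. The median log2 difference of the 76 was -0.05, with 28 above 0 and 48 below, beside 0.0054 for all genes. Below 0 were 16018 of all 32627 genes and 3620 of the 8157 above the 75th percentile, whose median was 0.020. Groups did not overlap for 13 of the 76, or 17.1%, 3 higher and 10 lower, beside 17.9% of all genes, 8.74% higher and 9.20% lower. Of the 10 further photosystem subunits, PSAH1, PSBY and PSBQ1 had the smallest p, at log2 differences of -0.23 (SE 0.12), 0.15 (SE 0.12) and -0.11 (SE 0.11). Of 10 genes of electron transport and the ATP synthase, LFNR1 and LFNR2, the leaf ferredoxin-NADP reductases, were at -0.22 (SE 0.16) and -0.23 (SE 0.17), and PETE1, a plastocyanin, was at 0.15 (SE 0.16).

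Among 15 carbon fixation genes, 11 log2 differences were below 0 and the median was -0.06. CP12-2, a small protein that binds and restrains Calvin cycle enzymes, was at 8.74, 8.89 and 8.76 in Mock and 8.53, 8.64 and 8.15 in DEX (log2 intensity), with no overlap. Its log2 difference was -0.36 (SE 0.16, limma adjusted p = 0.522). The aldolase gene FBA1 was at -0.25 (SE 0.11) and SBPASE, sedoheptulose-bisphosphatase, at -0.21 (SE 0.15). Of 18 chlorophyll synthesis genes, 11 were below 0 with a median of -0.07. GSA2, which makes 5-aminolevulinate, was at -0.26 (SE 0.11) and DVR, the divinyl reductase, at -0.27 (SE 0.13), both on the log2 scale. PORA, a protochlorophyllide reductase best known from dark-grown seedlings, was at 0.54 (SE 0.24) on a dim signal of 54.3.

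The transcription factors GLK1 and GLK2, which drive genes of this set in leaves, were not called. GLK1 was at 9.35, 9.59 and 9.71 in Mock and 9.30, 9.20 and 9.52 in DEX (log2 intensity), with overlap and a log2 difference of -0.20 (SE 0.15, limma adjusted p = 0.694). GLK2 was dim, at a mean intensity of 33.8, and its log2 difference was 0.37 (SE 0.34). HY5, a light-signalling factor, differed by -0.41 (SE 0.26). The GATA factors GNC and CGA1 were at -0.28 (SE 0.17) and 0.46 (SE 0.25), and the plastid sigma factor SIG1 at 0.34 (SE 0.15). Over the 12 regulators the median log2 difference was -0.04, with 8 below 0.

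The lists of antenna insertion and of light-stress relatives held the smallest p. CPFTSY, the chloroplast receptor for the signal recognition particle that delivers antenna proteins, was at 7.18, 7.10 and 7.17 in Mock and 6.85, 6.81 and 6.88 in DEX (log2 intensity). Its arrays were tight and apart, and the log2 difference was -0.31 (SE 0.10, unadjusted p = 0.0206, limma adjusted p = 0.373). LTD, which hands antenna proteins on after import, was at -0.24 (SE 0.12) and CPSRP54 at -0.14 (SE 0.10). The groups were apart and lower for 3 of these 5 genes, where 9.20% of all genes were apart and lower. OHP1, a one-helix protein needed to build photosystem II, was at 7.97, 7.51 and 8.08 in Mock and 6.64, 7.12 and 7.54 in DEX (log2 intensity). Its groups overlapped narrowly, with a log2 difference of -0.76 (SE 0.28, unadjusted p = 0.0372, limma adjusted p = 0.438). ELIP2, an early light-induced protein, was at 0.37 (SE 0.16) and OHP2 at -0.15 (SE 0.21).

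Chloroplast-encoded loci were low on 1 Mock array, where the nuclear genes were not. For 7 chloroplast loci (ATCG00020, ATCG00270, ATCG00280, ATCG00340, ATCG00350, ATCG00490 and ATCG00680), Mock replicate 1 was below the mean of the other Mock arrays by a median of 1.25 on the log2 scale (median of the differences -1.25), and it was the lowest of the 6 arrays for 6 of the 7. For the 38 nuclear genes the same median was 0.05, and Mock replicate 1 was the lowest array for 9 and the highest for 11. The 7 loci had log2 differences of DEX minus Mock from 0.35 to 0.88 with a median of 0.49, and none was called (limma, 1 at an unadjusted p under 0.05). That 1 was ATCG00340, at 10.67, 10.96 and 10.50 in Mock and 11.13, 11.22 and 11.02 in DEX (log2 intensity), lowest on Mock replicate 3. Groups were apart and higher for 2 of the 7 loci, where 8.74% of all genes were. Without Mock replicate 1 the 7 loci ranged from 0.017 to 0.39 with a median of 0.17, and the median of the 38 nuclear genes was 0.0074. ATCG00490 read 9.54, 10.78 and 10.84 in Mock and 10.92, 10.93 and 10.84 in DEX (log2 intensity), a log2 difference of 0.51 (SE 0.37). Mock replicate 1 stood below the other 5 arrays of this locus, which lay between 10.78 and 10.93.

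**Figure D4:**
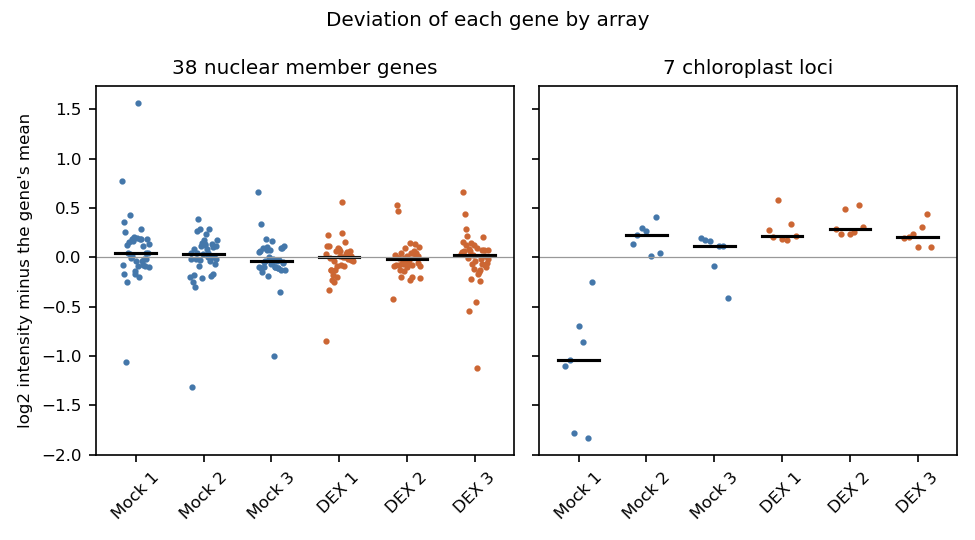
Log2 intensity minus the gene's own mean over 6 arrays (y axis) on each array, for the 38 nuclear genes (left) and 7 chloroplast loci (right); points are genes and black bars are medians. The medians of the nuclear genes stay between -0.03 and 0.04, while that of the chloroplast loci is -1.05 on Mock replicate 1.

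Array medians of all features ranged from an intensity of 74.2 to 77.3. Markers of the labelled tissue were present, with the floral genes AP1, AP3, PI, AG and SEP3 between the 74.0 and 98.8 percentiles of signal and log2 differences of -0.47 to -0.10, none called and 2 of 5 apart, where 17.9% of all genes were apart. The 5 stomatal and 5 tapetum markers had median log2 differences of -0.12 and -0.19 with none called. The log2 difference was -0.80 (SE 0.13) for SPCH, which starts the stomatal lineage, and -0.77 (SE 0.18) for the phloem carrier SUC2, both without overlap and not called (limma adjusted p = 0.141 and 0.265). The other stomatal markers FAMA, MYB60, KAT1 and MUTE differed by -0.12, -0.10, 0.02 and -0.20 (log2), and SUC2 was the only phloem marker listed. The 3 mature pollen markers had a median of 0.06, and SAG12, a senescence marker, was dim at the 21.1 percentile. The meristem gene WUS was the single marker of 23 called, at -1.29 (SE 0.10, limma adjusted p = 0.0470). The meristem markers STM and CLV3 differed by -0.07 (SE 0.12) and 0.13 (SE 0.28, log2), with CLV3 dim at the 20.9 percentile. The call of WUS was lost with any 1 array left out (limma adjusted p from 0.178 to 0.214) and with the replicate number as a fixed block (limma adjusted p = 0.299). In each of these settings 0 of all genes were called, so the loss is not particular to WUS. With 1 array left out its log2 difference lay between -1.34 and -1.26. Under the trended and robust prior that called LHCB4.3, 3 of the 23 markers were called, all lower: WUS, SPCH and SUC2 (limma adjusted p = 0.00138, 0.00310 and 0.0103). With that prior 1.32% of all genes were called, 1.06% lower. Whether a shift in cell types has a part in the lower LHCB4.3 signal was not tested.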

How the data were processed

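Cy3-labelled total RNA was hybridised to NimbleGen arrays, per the labels' protocols. The authors deposited RMA values, per the submitters' processing notes, as linear intensity from 0.482 to 3642 in 39640 rows, of which 37118 held values. Of RMA, neither settings nor version is given in the sources used here. RMA brings arrays to a common distribution, so a shift of all genes would not show. Intensities were put on the log2 scale, without a pseudocount. The feature with the highest mean log2 stood for each of 32627 loci, of which 31993 matched the RefSeq table of TAIR10.1, used for names and neighbours only. Sequences were not used here, so the planned look at proteins and promoters was not run.

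DEX was compared with Mock (3 arrays each) by limma 3.58.1 in R 4.3.3 (lmFit, eBayes, two-sided, Benjamini-Hochberg over all genes, threshold 0.05), tested on simulated data. The design allowed for log2 values or for linear values logged first; the latter applied. Intervals are 95% from the fit. Exact permutation tests used scipy 1.17.1. No 2 arrays were identical. The labels do not say whether replicates are separate plantings. The p-values therefore cover the spread among these 6 arrays, which may be technical, and precision is limited by their number.

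The 38 genes and the lists were chosen with earlier results of these data known. Each role's brightest gene and that with the smallest p are given array by array, and up to 3 genes of each further list with the smallest p are named, plus GLK1, GLK2 and HY5. Alternatives were a replicate block, filters on dim genes, other scalings, another variance prior, array weights, 16 added to each intensity, other uses of features and leaving out each array. The trended and robust prior without Mock replicate 1 was added after the data were seen.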

Additional observations from a re-analysis of the deposited data

How the results depend on the processing

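None of the 38 genes was called under any setting, except LHCB4.3, which was called (count 1) without genes below the median intensity, with the trended and robust prior (limma adjusted p = 0.00835), and with that prior without Mock replicate 1 (-0.62, limma adjusted p = 0.0480; a setting chosen after the data were seen). Its log2 difference lay between -0.74 and -0.56 and its adjusted p between 0.00835 and 0.409 over 18 settings, and it was -0.67 in the 2 planned settings that called it. None of the 76 listed nuclear genes or 7 chloroplast loci was called in any setting. Over all genes 17 were called, against 0 with a fixed replicate block, 105 without the dimmest 25%, 282 without genes below the median, 431 with the trended and robust prior, 244 with it and without Mock replicate 1, 204 with 16 added, and 0 with any array left out (range 0 to 0). Whether same-numbered samples are pairs was not settled, and the main test did not pair them. Their correlations of deviations were small, at 0.028, 0.063 and 0.056, and those of other pairings lay between -0.061 and 0.0043. As a hint from the data, each sample correlated best with its own number. The replicate block called 0 genes as a fixed factor and 20 as a random effect. With an array left out, the median of the 38 lay between -0.047 and 0.018, and 8 to 12 of them did not overlap, where 27.2% to 29.7% of all genes did not. Of the 38 genes, 16 changed sign in some setting, all of them uncalled. LHCA2 was -0.0054 with quantile normalization. LHCB1.2, LHCB5 and RBCS1A were 0.026, 0.016 and 0.0196 with arrays centred on medians. LHCA3, LHCA5, LHCB4.2 and RBCS1A were 0.028, 0.10, 0.069 and 0.012 with features averaged. PSAK, RBCS1B and RBCS3B were 0.033, 0.12 and 0.011 with the trended prior without Mock replicate 1. With an array left out, the ranges were -0.085 to 0.13 for LHCA2, -0.13 to 0.0075 for LHCA3, -0.091 to 0.028 for LHCA5, -0.045 to 0.041 for LHCB1.2, -0.045 to 0.21 for LHCB1.5, -0.0902 to 0.13 for LHCB2.3, -0.046 to 0.12 for LHCB3, -0.085 to 0.048 for LHCB4.2, -0.059 to 0.036 for LHCB5, -0.12 to 0.022 for LHCB6, -0.0601 to 0.075 for PSAH2, -0.089 to 0.033 for PSAK, -0.034 to 0.047 for PSAL, -0.063 to 0.051 for RBCS1A, -1.17 to 0.12 for RBCS1B and -0.13 to 0.0108 for RBCS3B. The cause was not tested. Arrays give no read depth, and for the dim genes LHCB1.1, LHCB2.1, LHCB2.2 and RBCS1B signal over background is not known.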
